A study of Mus musculus with 36 samples.

Results

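The genes that make, export, break down, and sense sphingosine-1-phosphate (S1P) were measured in mouse blood taken on day 7 after x-rays, neutrons, or both. The set held 8 genes: the S1P exporter Spns2, the sphingosine kinases Sphk1 and Sphk2, the S1P lyase Sgpl1, and the receptors S1pr1, S1pr2, S1pr4, and S1pr5. They were taken by their gene name on the Agilent array, which gave 9 of its 39429 probes, Sphk1 having 2. The set was selected on these data, since Spns2 had been noted for its fall after neutron alone. That fall is therefore described here without a test. Of the 8 genes, 7 were among the 15085 genes tested, and S1pr5 varied too little between arrays to be included.

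Blood was drawn by cardiac puncture from young adult male C57BL/6J mice, and the RNA of each mouse was hybridized to 1 single-colour array, with 6 mice in each of 6 groups. Controls were sham-irradiated. The second group received 3 Gy of x-rays, and the next 3 groups received a total of 3 Gy of mixed field x-ray/neutron, in which neutrons made up 5, 15, or 25% of the dose, or 0.15, 0.45, and 0.75 Gy. The last group, called neutron alone here, received 0.75 Gy of neutrons and no x-rays. Its total dose was thus lower than that of the mixed fields, and the neutron source also gives off some photons. No group carried a genetic change or drug. Between 15569 and 21294 probes per array were well above background, and the median was lowest in neutron alone, at 16564 probes. The arrays were scanned in 4 sessions. Session 1 held 5 control and 5 x-ray arrays, session 2 held 5 arrays each of the 5 and 15% mixed fields, session 3 held all arrays of the 25% mixed field and of neutron alone, and session 4 held 1 array each of the remaining 4 groups. For the 25% mixed field and neutron alone, exposure and session cannot be told apart in the comparisons with controls and with x-rays.

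S1P is a signalling lipid formed when a sphingosine kinase phosphorylates sphingosine. It is kept high in blood and lymph and low inside tissues, where the lyase destroys it, and lymphocytes follow this gradient out of the lymphoid organs through the receptor S1pr1. Endothelial cells export S1P through Spns2, and red cells and platelets through Mfsd2b. The receptors are spread over different cells: S1pr1 and S1pr4 are found on lymphocytes, S1pr5 on NK cells, and S1pr2 on many cell types, where it restrains migration. In lymphocytes S1pr1 is transcribed under the control of Klf2, which itself depends on Foxo1, and CD69 removes the receptor from the cell surface.

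The promoters of Spns2, Sphk1, and S1pr4, the genes of the set with the largest differences from controls for which a promoter was listed, are shown because Klf2 fell in the same exposures as S1pr4, and because the level of Sphk1 followed that of Klf1 over the arrays. Klf proteins bind CACCC boxes. Each sequence is the 250 bases before a transcription start, 5′ to 3′ along the gene, taken from RefSeq on the build GRCm38.p6, and capitals mark CACCC or its reverse complement GGGTG. The Spns2 sequence lies at chr11:72475028-72475277 on the minus strand, the Sphk1 sequence at chr11:116531587-116531836 on the plus strand, and the S1pr4 sequence at chr10:81500138-81500387 on the minus strand.
Spns2: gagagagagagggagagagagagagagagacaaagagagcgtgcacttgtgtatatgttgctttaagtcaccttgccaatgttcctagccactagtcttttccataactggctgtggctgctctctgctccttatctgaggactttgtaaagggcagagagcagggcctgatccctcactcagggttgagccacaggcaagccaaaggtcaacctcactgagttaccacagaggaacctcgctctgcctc
Sphk1: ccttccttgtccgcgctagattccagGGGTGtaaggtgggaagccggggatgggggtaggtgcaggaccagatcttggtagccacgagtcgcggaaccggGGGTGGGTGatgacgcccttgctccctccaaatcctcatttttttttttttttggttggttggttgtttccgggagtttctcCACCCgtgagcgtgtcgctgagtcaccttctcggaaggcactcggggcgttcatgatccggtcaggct
S1pr4: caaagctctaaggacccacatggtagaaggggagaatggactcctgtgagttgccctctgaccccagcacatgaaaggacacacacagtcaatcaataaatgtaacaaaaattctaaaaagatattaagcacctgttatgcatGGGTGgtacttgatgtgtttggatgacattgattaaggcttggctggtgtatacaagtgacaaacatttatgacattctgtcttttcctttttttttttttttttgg
Spns2 had no match, S1pr4 had 1 match on the opposite strand, and Sphk1 had 4 matches, of which 2 overlap by 1 base. Sphk1 has 5 listed starts, some with overlapping windows, and their matches ranged from 0 to 4. The window printed is the one with the most. Among the 32851 promoters of 27025 genes in the table, 52% held at least 1 match in the same 250 bases, and the median was 1 match. The Foxo motif GTAAACA and its reverse complement TGTTTAC, found in 3.17% of these promoters, were in none of the 12 windows listed for 7 of the 8 genes. S1pr1 had no listed window. A match describes letters in a window and does not show that a factor binds there, and control of these genes by Klf proteins was not tested.

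Levels are given as log2 intensity relative to the median of the array, so that an array median is 0, and they are compared within a gene only. Differences are log2 fold-changes from limma on the 12 arrays of a comparison. A gene was called differentially expressed when p was below 0.001 and its Benjamini-Hochberg adjusted value, taken over all 15085 genes, was below 0.05. A difference with an adjusted p below 0.05 that is given as not called missed the first of these. All comparisons with controls use the same 6 control arrays and are not independent of each other.

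**Figure D1:**
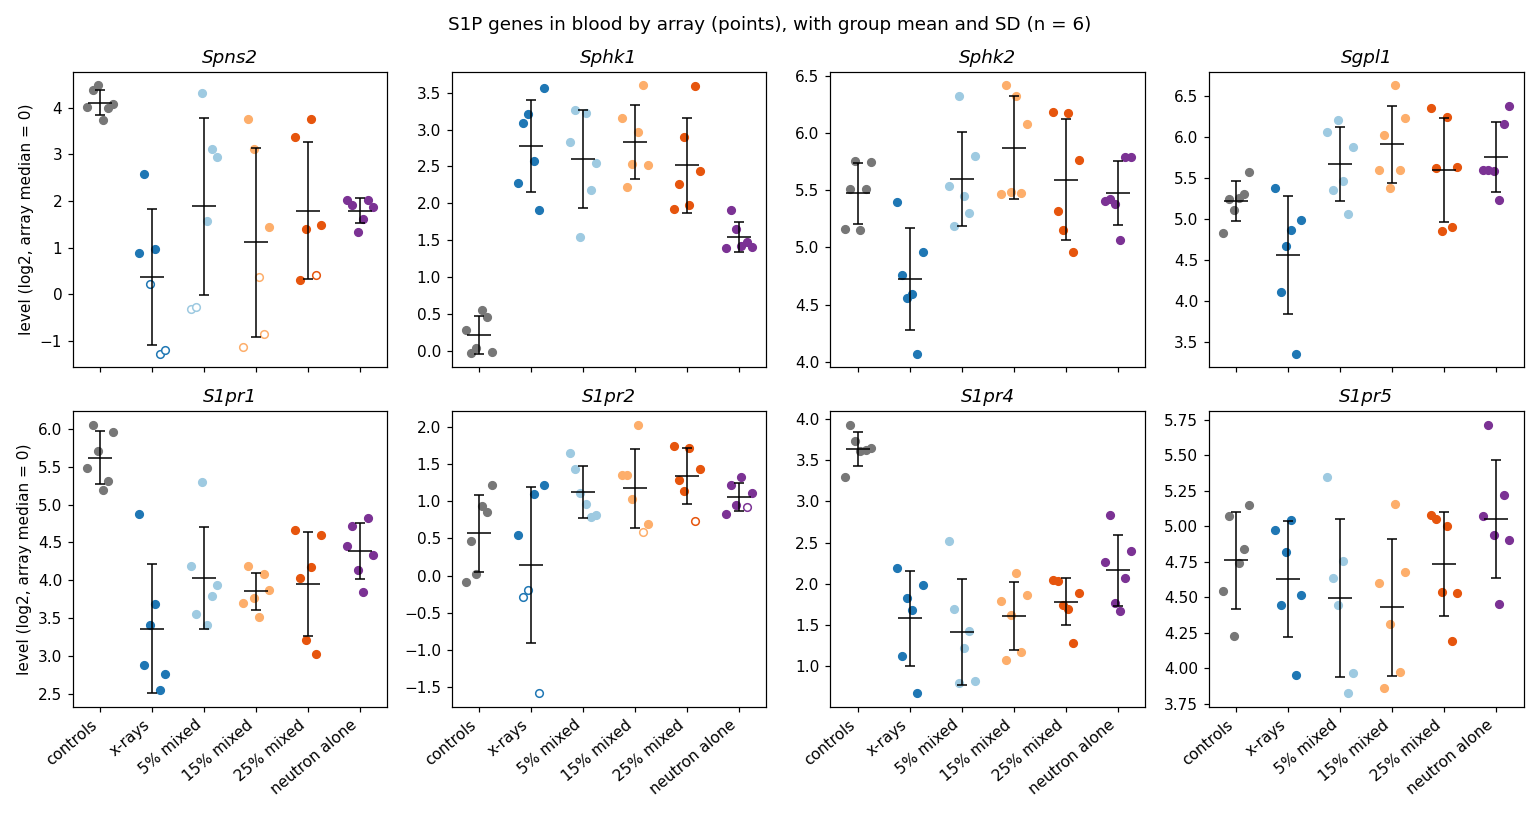
Level of each S1P gene on every array (vertical axis, log2 intensity with the array median at 0; horizontal axis, group). Each point is 1 mouse, open points are arrays on which the probe was not well above background, and the black marks give the group mean and SD (n = 6). Sphk1 lies above and S1pr4 below the control range on all 30 exposed arrays, whereas Spns2 is tight in controls and neutron alone and wide in the other 4 groups.

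Against controls, Sphk1 rose and S1pr1 and S1pr4 fell after each of the 5 exposures, and Spns2 also fell after x-rays and the 25% mixed field. After x-rays 1 of the 7 genes tested was called higher and 3 lower, with 12.9% of all genes called higher and 16.9% lower. After the 5% mixed field the members called were 1 higher and 2 lower, beside 9.04% and 14% of all genes. The 15% mixed field also gave 1 higher and 2 lower, beside 12.6% and 16.5%, and the 25% mixed field 1 higher and 3 lower, beside 10.9% and 13.9%. After neutron alone, without counting Spns2, 1 of 6 members was called higher and 2 lower, beside 16.1% and 20.5% of all genes. Sphk2, Sgpl1, and S1pr2 were not called in any comparison with controls. The median log2 fold-change of the members ranged from -0.749 after x-rays to 0.40 after the 15% mixed field, while that of all genes tested ranged from -0.116 to -0.0171.

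**Figure D2:**
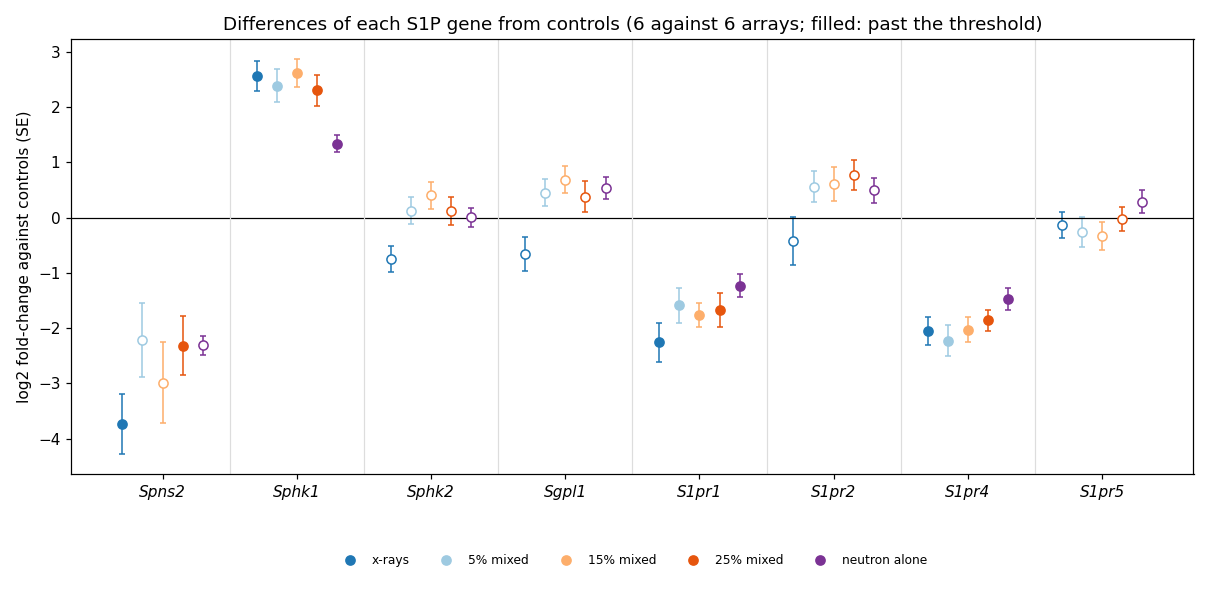
Log2 fold-change of each S1P gene against controls (vertical axis; points give the estimate and bars its SE, 6 against 6 arrays) after the 5 exposures. Filled points passed the threshold. Spns2 after neutron alone is open because it was not tested, and S1pr5 comes from a fit without the filter on variation. Sphk1 is the member that lies above 0 throughout, and its smallest rise, 1.33, is that of neutron alone.

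Spns2, the exporter, was measured by 1 probe at chr11:72265167-72265226 (mm9, minus strand). In controls its level lay between 3.72 and 4.48, with a mean of 4.11 ± 0.27 (SD, n = 6). After neutron alone the 6 arrays lay between 1.33 and 2.03 (median 1.90), and none overlapped the controls. The mean was 1.80 ± 0.27, a difference of -2.31 on the log2 scale or 4.97-fold, which is the contrast that the gene was chosen on. The spread after neutron alone was as small as that in controls.

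In the other exposures the mean of Spns2 lay below that of controls as well, and the arrays were far more scattered. After x-rays the level ranged from -1.27 to 2.59 (median 0.56), below all controls, and the log2 fold-change was -3.74 ± 0.54 (SE, n = 6 per group; limma, adjusted p = 0.000115), with the probe well above background on 3 of the 6 x-ray arrays, so that no fold is given. With the 5% mixed field it ranged from -0.30 to 4.31 (median 2.25), and replicate 3 fell inside the control range. This difference of -2.22 ± 0.68 was not called (adjusted p = 0.0165 in limma). With the 15% mixed field it ranged from -1.12 to 3.76 (median 0.91), and the difference of -2.99 ± 0.73 was also not called (adjusted p = 0.00371 in limma). With the 25% mixed field it ranged from 0.30 to 3.77, and the difference of -2.32 ± 0.54 was called (adjusted p = 0.00311 in limma). In each mixed field 5 of 6 arrays lay below all controls.

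The SD of Spns2 over the 6 arrays was between 1.46 and 2.02 in these 4 groups. The probe was well above background on 27 of the 36 arrays. The 9 others were 3 x-ray arrays, 2 and 3 arrays of the 5 and 15% mixed fields, and 1 of the 25% mixed field, so that their levels are the least certain. In some groups arrays with more probes well above background had higher Spns2, with a Pearson's r of 0.795, 0.842, and 0.815 over the 6 arrays each of x-rays, 5%, and 15%, and of 0.236, 0.265, and 0.462 in the 25% mixed field, neutron alone, and controls. The part of the number of probes in the spread was not tested. Within session 1 the difference between x-rays and controls was -3.35 with 5 arrays each, and in session 4 with 1 array each it was -5.66, -1.37, and -1.37 for x-rays, 5%, and 15%. The call for the 25% mixed field was lost on leaving out each control in turn or replicate 2, 3, 5, or 6 of that group (log2 fold-changes of -2.39 to -2.02). Leaving out replicate 3 of the 5% group, or replicate 2 or 3 of the 15% group, brought a call for Spns2 there, at -2.70, -3.52, and -3.39. The calls also depended on the model. A single model over all arrays lost the call at 25% (limma, adjusted p = 0.0161) and brought one at 15%, at -2.99. The replicate number as a block brought a call at 15%, and array weights brought calls at 5 and 15%, at -2.70 and -3.81.

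Compared with x-rays, Spns2 was not called different in any mixed field. The differences were 1.52 (95% confidence interval from -0.25 to 3.29), 0.75 (from -1.13 to 2.63), and 1.42 (from -0.14 to 2.99) for the 5, 15, and 25% mixed fields. These intervals hold both no difference and one of several fold. Mean Spns2 differed by 0.004 on the log2 scale between neutron alone and the 25% mixed field, the groups with the same neutron dose, with no test on the neutron alone arrays.

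The genes whose levels were most like that of Spns2 over the 36 arrays were Cnn3, a calponin of the actin cytoskeleton, Abca1, a cholesterol exporter, and Bcar3, an adaptor protein in adhesion signalling. Pearson's r was 0.956, 0.952, and 0.923. The points share the groups, the scan sessions, and the number of probes above background. Of 7 endothelial markers, Pecam1, Kdr, Egfl7, and Plvap were well above background on all 36 arrays, whereas Emcn was so on 0 arrays, Tek on 1, and Cdh5 on 10. Kdr, Egfl7, and Plvap were tested, and 1, 1, 1, 2, and 0 of them were called higher after x-rays, 5%, 15%, 25%, and neutron alone, beside 12.9%, 9.04%, 12.6%, 10.9%, and 16.1% of all genes. The summed endothelial markers lay between 8.02 and 8.36 in controls, between 8.59 and 10.1 after x-rays, between 7.36 and 8.88 over the mixed fields, and between 7.65 and 8.79 after neutron alone. The mean of this sum was 8.19 in controls and lower at 15 and 25%, at 7.78 and 7.91. The median log2 fold-change of the tested markers was 1.78 and 1.79 there, so that the sum and these markers moved in opposite directions. Over the 36 arrays Pearson's r with Spns2 was -0.35 for the endothelial sum, -0.803 for the summed red cell markers, -0.685 for platelet markers, and 0.54 for B cell markers, and between -0.486 and 0.0664 for the other 4 lists of blood cell markers. The part of these cells in the Spns2 result was not tested.

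Sphk1, the kinase that is induced by many growth signals, had the lowest level of the groups in controls, at -0.03 to 0.55 (median 0.16). It lay between 1.91 and 3.56 after x-rays (median 2.84), between 1.55 and 3.27 after 5% (median 2.69), between 2.22 and 3.60 after 15% (median 2.75), and between 1.92 and 3.60 after 25% (median 2.34). After neutron alone it lay between 1.40 and 1.92 (median 1.45). No exposed array overlapped the controls. The log2 fold-changes were 2.56 ± 0.28, 2.39 ± 0.30, 2.62 ± 0.25, and 2.30 ± 0.28 (SE, n = 6 per group) for x-rays and the 3 mixed fields, which is a 4.93- to 6.16-fold rise. Neutron alone gave 1.33 ± 0.15, or 2.52-fold. Adjusted p in limma was between 3.84e-06 and 4.09e-05.

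Sphk1 was the only member called between exposures among those tested. It was lower after neutron alone than after x-rays by 1.23 ± 0.27 (SE) on the log2 scale, or 2.34-fold (limma, adjusted p = 0.00486), with 12.9% of all genes called in that comparison, and 5 of 6 arrays lay below all x-ray arrays. Against the 25% mixed field, which carried the same neutron dose, the log2 fold-change of neutron alone was -0.97 ± 0.28 (SE, n = 6 per group), with all 6 arrays below those of the 25% field. That difference was not called (limma, adjusted p = 0.0205), while 11.4% of all genes were called. The call against x-rays rested close to the threshold and was lost on leaving out neutron alone replicate 1, 3, 4, 5, or 6, or x-ray replicate 2, 3, or 6, with log2 fold-changes of -1.25 to -1.07. Neutron alone and x-rays share no scan session.

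The 2 probes of Sphk1 moved in the same direction, but not every call held on the second. The probe used here lies at chr11:116397908-116397967 and the second at chr11:116397591-116397650 (mm9, plus strand). The second probe was not well above background on any control or neutron alone array, and was well above it on 5, 1, 2, and 2 arrays of x-rays, 5%, 15%, and 25%. It gives a bound after x-rays, with Sphk1 at least 1.54-fold higher than in controls, where each array was taken at the higher of its own signal and the lowest signal well above background. No fold is given for the other exposures. On the second probe the rises after x-rays and the 3 mixed fields were called. Neutron alone was not called on it against controls or x-rays (limma, adjusted p = 0.0139 and 0.0605). With a normexp background correction the log2 fold-change of the first probe against controls was 0.15 to 1.09, and none of the 5 differences was called (adjusted p from 0.0237 to 0.684).

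Klf1, the transcription factor that directs red cell genes, was the gene most like Sphk1 over the 36 arrays (Pearson's r = 0.974), followed by an unnamed transcript, ENSMUST00000193396 (0.972), and Ccnb2, a mitotic cyclin (0.971). Klf1 rose by 2.73, 2.46, 2.61, and 2.54 on the log2 scale after x-rays, 5%, 15%, and 25%, and by 1.59 after neutron alone, so that its smallest rise, too, was after neutron alone. Of 7 red cell markers 5, 5, 6, 4, and 6 were called higher after x-rays, 5%, 15%, 25%, and neutron alone, beside 12.9%, 9.04%, 12.6%, 10.9%, and 16.1% of all genes. The summed level of these markers lay between 14.4 and 14.8 in controls, between 15.0 and 16.4 after x-rays, between 14.2 and 16.5 over the mixed fields, and between 15.6 and 16.3 after neutron alone, and over the arrays its Pearson's r with Sphk1 was 0.60. It was 0.626 for platelet markers, -0.886 for B cell markers, and -0.487 for T cell markers. The part of these cells in the Sphk1 result was not tested.

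Sphk2, the other kinase, which acts largely in the nucleus and mitochondria, had a mean level of 5.47 ± 0.27 (SD, n = 6) in controls and 4.72 ± 0.44 after x-rays. The 5, 15, and 25% mixed fields had means of 5.60 ± 0.41, 5.87 ± 0.45, and 5.59 ± 0.53, and neutron alone 5.48 ± 0.28. X-rays were thus the group with the lowest values, with 5 of 6 arrays below all controls. The log2 fold-change after x-rays was -0.75 ± 0.23 (limma, adjusted p = 0.0133), which was not called, and after neutron alone it was 0.003 with a 95% confidence interval from -0.36 to 0.37.

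Sgpl1, the lyase that degrades S1P irreversibly, also had its lowest values after x-rays. Its mean was 5.22 ± 0.24 (SD, n = 6) in controls, 4.56 ± 0.72 after x-rays, 5.67 ± 0.45, 5.91 ± 0.47, and 5.60 ± 0.63 after the 5, 15, and 25% mixed fields, and 5.76 ± 0.43 after neutron alone. None of its 5 differences from controls, -0.66 after x-rays and 0.38 to 0.69 otherwise, was called (adjusted p in limma from 0.0302 to 0.28). That of neutron alone depended on the scaling. It was called with the 75th percentile, quantile normalization, and centring on probes well above background, at 0.80, 0.74, and 0.73. These scalings called 40%, 39.3%, and 41.4% of all genes. With normexp it was at -0.84 and not called. The levels of Sgpl1 and Sphk2 went together over the 36 arrays, with a Pearson's r of 0.893, the highest among the pairs of members. Both ran against the summed endothelial markers, with r of -0.817 for Sgpl1 and -0.815 for Sphk2, and the part of these markers was not tested. That sum was lower than in controls at 15 and 25%, where the tested endothelial markers had a positive median log2 fold-change.

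Against x-rays, neither gene was called in any neutron-containing exposure, though all 8 differences were positive. The log2 fold-change of Sgpl1 was 1.11, 1.35, 1.04, and 1.20 after 5, 15, and 25% mixed field and neutron alone, and that of Sphk2 was 0.87, 1.15, 0.87, and 0.75. The adjusted p in limma for Sgpl1 was 0.109, 0.0323, 0.0995, and 0.0153, and for Sphk2 it was 0.117, 0.0294, 0.0881, and 0.0276. All 6 arrays of the 15% field lay above all x-ray arrays for Sphk2, and 5 of 6 did so for Sgpl1. These 4 comparisons share the 6 x-ray arrays. X-rays share a scan session with 5 and 15% through 1 array each, and none with 25% or neutron alone. In session 4 the differences at 5 and 15% were 0.075 and 0.39 for Sgpl1 and 0.34 and 0.52 for Sphk2. With normexp Sphk2 at 5% was at -0.10. No member was called between the mixed fields and x-rays, where 0%, 4.09%, and 2.61% of all genes were called at 5, 15, and 25%. At 5% no gene passed in limma, and 3508 had an unadjusted p below 0.05. Without x-ray replicate 1, both genes were called at 15% (1.51 for Sgpl1 and 1.28 for Sphk2) and Sgpl1 after neutron alone (1.36).

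**Figure D3:**
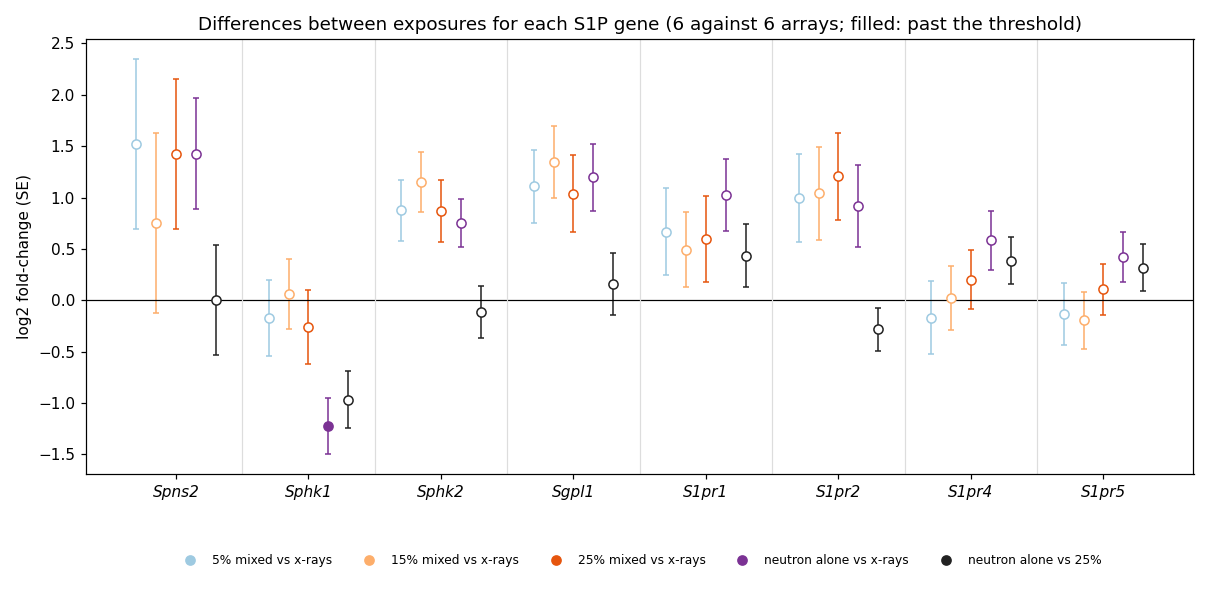
Log2 fold-change of each S1P gene between exposures (vertical axis; points give the estimate and bars its SE, 6 against 6 arrays), for the 4 neutron-containing exposures against x-rays and for neutron alone against the 25% mixed field. Filled points passed the threshold, Spns2 on the neutron alone arrays was not tested, and S1pr5 comes from a fit without the filter on variation. Sphk1 in neutron alone against x-rays, at -1.23, is the filled point, and Sphk2 and Sgpl1 lie above 0 in each comparison with x-rays.

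S1pr1, the receptor by which lymphocytes leave lymphoid organs, lay between 5.19 and 6.06 in controls (median 5.60). After x-rays it lay between 2.55 and 4.87 (median 3.14), after 15% between 3.52 and 4.19 (median 3.81), after 25% between 3.03 and 4.66 (median 4.10), and after neutron alone between 3.84 and 4.82 (median 4.39), with no overlap with controls. After the 5% mixed field it lay between 3.41 and 5.29 (median 3.86), and 1 array reached the control range. The log2 fold-changes were -2.26 ± 0.35, -1.59 ± 0.31, -1.77 ± 0.22, -1.67 ± 0.31, and -1.24 ± 0.21 (SE, n = 6 per group) for x-rays, 5%, 15%, 25%, and neutron alone, that is, 4.79-, 3.01-, 3.40-, 3.18-, and 2.35-fold lower. Adjusted p in limma was between 3.08e-05 and 0.00111. Between neutron alone and x-rays the log2 fold-change was 1.02 ± 0.36, which was not called (limma, adjusted p = 0.0454). It was called without x-ray replicate 1, at 1.33, and was as low as 0.09 under another of the alternatives. These groups share no scan session.

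S1pr4, a receptor of lymphoid cells, had controls between 3.30 and 3.93 (median 3.64) and was lower on all 30 exposed arrays. It lay between 0.68 and 2.19 after x-rays (median 1.76), between 0.80 and 2.52 after 5% (median 1.32), between 1.07 and 2.13 after 15% (median 1.71), and between 1.28 and 2.05 after 25% (median 1.81). After neutron alone it lay between 1.67 and 2.83 (median 2.17). The log2 fold-changes were -2.06 ± 0.26, -2.23 ± 0.29, -2.03 ± 0.23, -1.86 ± 0.19, and -1.47 ± 0.20 (SE, n = 6 per group), which is 4.16-, 4.68-, 4.09-, 3.63-, and 2.78-fold lower. Adjusted p in limma was between 7.94e-06 and 5.57e-05. No exposure was called different from x-rays, and the difference was 0.58 for neutron alone (95% confidence interval from -0.04 to 1.20) and 0.03 for the 15% field (from -0.64 to 0.69).

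Both receptors moved with B cell markers and less evenly with T cell markers. Of 8 B cell markers, 8 were called lower after x-rays and each mixed field and 7 after neutron alone, with a median log2 fold-change of -3.5, -3.71, -3.93, and -4.3 after x-rays, 5%, 15%, and 25%, and of -1.34 after neutron alone. Their summed level lay between 11 and 11.8 in controls, between 5.97 and 9.23 after x-rays, between 6.69 and 8.37 after 5%, between 5.88 and 8.37 after 15%, between 6.72 and 8.48 after 25%, and between 9.78 and 10.2 after neutron alone. Of these markers Pax5 and Blk were well above background on 11 and 18 arrays, and the other 6 on all 36. Of 8 T cell markers 2, 3, 3, 2, and 1 were called lower, and of 7 NK cell markers 0 in each exposure, beside 16.9%, 14%, 16.5%, 13.9%, and 20.5% of all genes. The summed T cell markers lay between 10.1 and 10.9 in controls, between 8.97 and 9.83 after x-rays, between 8.68 and 10.3 over the mixed fields, and between 9.59 and 10.45 after neutron alone. Over the 36 arrays Pearson's r with the B cell sum was 0.806 for S1pr1 and 0.802 for S1pr4, with the T cell sum 0.541 and 0.781, and with the NK cell sum 0.0354 and 0.095. In whole blood, fewer cells of a type and less RNA per cell cannot be told apart. The part of the cell make-up in the fall of the receptors was not tested.

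**Figure D4:**
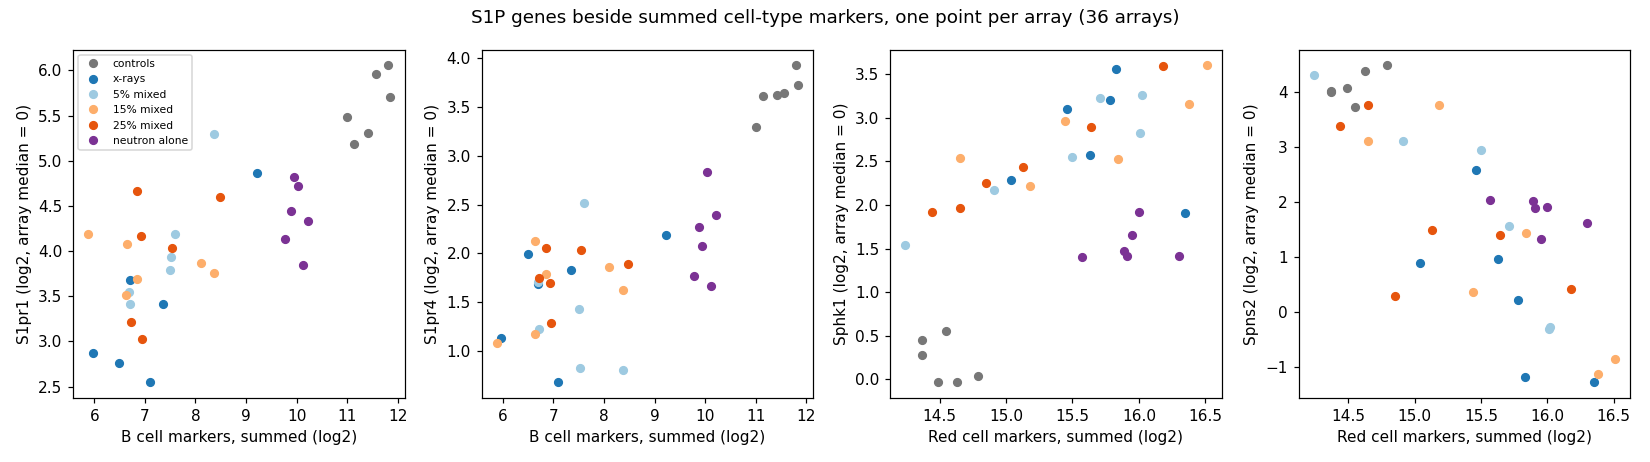
S1pr1 and S1pr4 against the summed B cell markers, and Sphk1 and Spns2 against the summed red cell markers (all axes log2, array median at 0). Each point is 1 of the 36 arrays, coloured by group. The controls stand apart at B cell sums of 11 and above, and neutron alone lies between them and the other exposures, at 9.78 to 10.2.

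The genes most like S1pr4 over the arrays were Plekhg2 (Pearson's r = 0.968), Arhgap4 (0.954), and Gpr174 (0.954), a receptor of lymphocytes. Those most like S1pr1 were Snx25 (0.931), Macf1 (0.929), a linker of microtubules and actin, and Tcf4 (0.926), a transcription factor of the lymphoid lineage. The likeness of S1pr1 and S1pr4 to each other was lower, with a Pearson's r of 0.741. Sphk1 opposed both, with r of -0.834 for S1pr1 and -0.728 for S1pr4. The genes most like S1pr2 were Aif1 (0.85), Tns3 (0.822), and Ms4a6d (0.814), those most like Sphk2 were Tom1l2 (0.951), Fuca1 (0.95), and Tomm40 (0.946), and those most like Sgpl1 were Map4 (0.953), Hspa8 (0.948), and Gtf3c5 (0.947).

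Differences of Sphk1, S1pr1, and S1pr4 from controls had the same direction within a scan session. Within session 1, with 5 arrays each, x-rays and controls differed by 2.37 for Sphk1, -2.12 for S1pr1, and -2.12 for S1pr4. In session 4, with 1 array each, the differences of the same genes after x-rays were 3.52, -2.95, and -1.74, after 5% they were 2.14, -1.92, and -2.30, and after 15% 2.49, -1.95, and -2.10. With the session as a block, the calls at 5 and 15% were lost for all 3 genes (adjusted p in limma from 0.0827 to 0.291), since only the 1 pair of arrays in session 4 then informs the difference. After x-rays all 3 genes were called with that block.

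S1pr2, which limits cell migration, was not called in any of the 10 comparisons. Its mean was 0.57 ± 0.52 (SD, n = 6) in controls, 0.14 ± 1.05 after x-rays, 1.13 ± 0.35, 1.18 ± 0.53, and 1.34 ± 0.38 in the 5, 15, and 25% mixed fields, and 1.06 ± 0.19 after neutron alone. The largest difference from controls was that of the 25% field, 0.77 ± 0.27 (limma, adjusted p = 0.0297). The probe was well above background on 30 of 36 arrays, and on 3 of 6 after x-rays. Pearson's r of S1pr2 with the summed monocyte markers was 0.585 and with the endothelial markers -0.59 over the 36 arrays, and the part of these cells was not tested.

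S1pr5, the receptor of NK cells, was well above background on all 36 arrays, and just under the required 20% of the arrays lay 1.5-fold or more from its median. In a fit without this filter, over 17342 genes, its log2 fold-changes against controls were -0.13, -0.27, -0.33, -0.03, and 0.29 after x-rays, 5%, 15%, 25%, and neutron alone (adjusted p in limma from 0.263 to 0.925). The widest 95% confidence interval among them, after 5%, ran from -0.85 to 0.32. Arrays of all 5 exposures overlapped the controls, which lay between 4.22 and 5.15.

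Other genes of the pathway were taken from 2 lists, one on S1P and sphingolipid metabolism and one on S1P transport and signalling. Of 32 metabolic genes 20 were tested, and 1, 2, 1, 2, and 0 were called higher and 5, 3, 3, 4, and 2 lower after x-rays, 5%, 15%, 25%, and neutron alone. All genes called made up 12.9%, 9.04%, 12.6%, 10.9%, and 16.1% higher and 16.9%, 14%, 16.5%, 13.9%, and 20.5% lower, so that several of these counts lie near or under the background. The median log2 fold-change of the 20 ranged from -0.683 after x-rays to 0.128 after 5%. Cers4, a ceramide synthase, and Sgms1, a sphingomyelin synthase, fell after every exposure. The log2 fold-change of Cers4 was -1.86, -2.02, -1.82, -1.58, and -1.37 after x-rays, 5%, 15%, 25%, and neutron alone (adjusted p in limma from 1.72e-05 to 0.000126). That of Sgms1 was -1.43, -1.47, -1.80, -1.91, and -1.52 (adjusted p from 2.13e-05 to 0.00193).

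Of 23 transport and signalling genes 20 were tested, and 7, 6, 5, 6, and 7 were called lower and 0, 0, 0, 1, and 0 higher, beside the same shares of all genes. Their median log2 fold-change lay between -0.785 and -0.552. Klf2, Foxo1, and Cd69, which act on S1pr1 in lymphocytes, were lower after every exposure. Klf2, the factor that drives S1pr1, had log2 fold-changes of -1.52, -1.89, -2.202, -1.80, and -1.36 in the same order (adjusted p in limma from 4.16e-05 to 0.00251). Foxo1 had -2.41, -2.12, -2.19, -1.73, and -0.96 (adjusted p from 5.26e-06 to 0.000471), and was higher after neutron alone than after x-rays by 1.45 ± 0.28 (adjusted p = 0.00204 in limma), a call that was lost with normexp, at 0.48. Cd69, whose product takes S1pr1 off the cell surface, had -1.88, -2.52, -2.496, -1.69, and -1.43 (adjusted p from 2.05e-06 to 3.96e-05).

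Spns3, a relative of Spns2, and Dock2, a Rac exchange factor needed for lymphocyte migration, were called lower after 4 exposures. Spns3 had log2 fold-changes of -2.03, -3.25, -2.95, and -1.64 after x-rays, 15%, 25%, and neutron alone, where its probe was well above background on 3, 1, 1, and 3 of the 6 arrays. After 5% the difference was -2.14 ± 0.96 (limma, adjusted p = 0.0853), with levels between -1.50 and 6.03 against 2.40 to 3.10 in controls. Dock2 had -1.16, -1.35, -1.19, and -1.16 after 5%, 15%, 25%, and neutron alone, and its difference of -0.98 after x-rays was not called (adjusted p = 0.00818 in limma). Mfsd2b, the S1P exporter of red cells and platelets, was not called, with log2 fold-changes of 0.03 to 1.00 (adjusted p in limma from 0.00697 to 0.911), and neither was S1pr3, with -0.997 to -0.02. The S1pr3 probe was well above background on 4 control arrays. After x-rays, 5%, 15%, 25%, and neutron alone it was so on 0, 1, 1, 1, and 0 arrays, so that its values are uncertain. With the session as a block 0 genes of the 2 lists were called after 5% and 1 after 15%, where 1 array per group shares a session, and with normexp 4, 3, 2, 3, and 2 of 18 transport and signalling genes were called, each lower. Of all genes, that block called 0.59% and 0.902%, and normexp called 3.66%, 2.49%, 7.42%, 4.26%, and 3.36% in either direction.

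**Figure D5:**
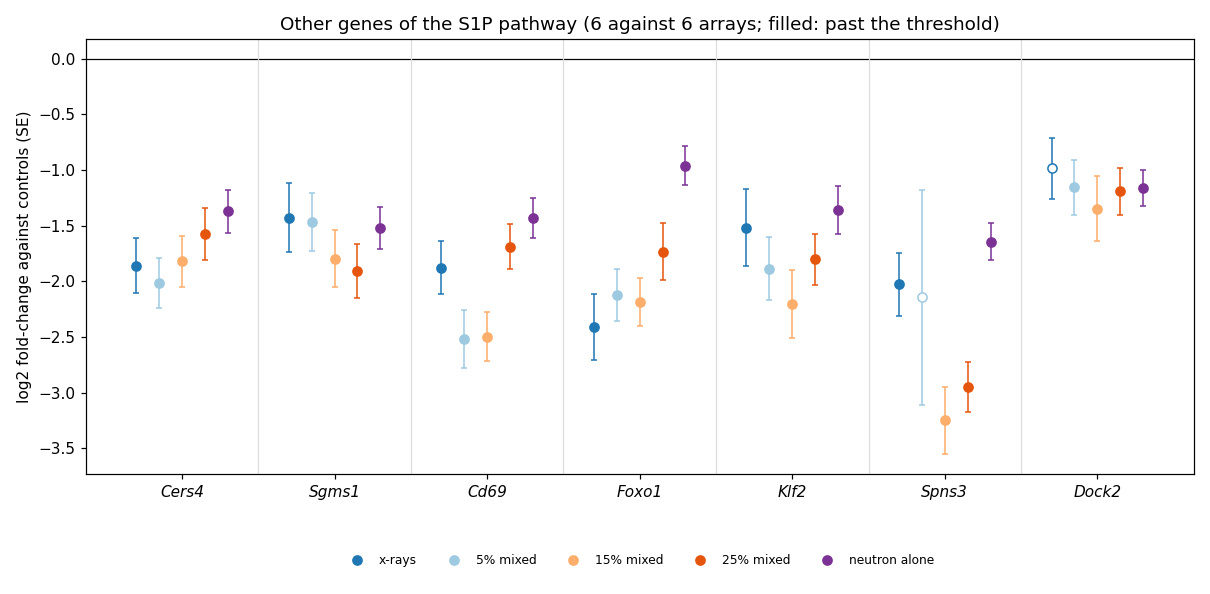
Log2 fold-change against controls (vertical axis; points give the estimate and bars its SE, 6 against 6 arrays) of the 7 further genes of the pathway that were called in at least 4 of the 5 exposures. Filled points passed the threshold. All lie below 0, and those of Foxo1 run from -2.41 after x-rays to -0.96 after neutron alone.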

How the data were processed

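Per the file headers and the submitters' processing notes, the authors scanned each array with Agilent Feature Extraction 12.0.2 and deposited a linear intensity per spot, corrected for background within the array and not normalized between arrays. They also deposited a table of log2 values, normalized and filtered, which served as an alternative here. The intensities were log2-transformed, uniform spots of a probe were averaged, and the median of an array was set to 0, the normalization that the methods name. Probes were kept if significant over background on over 75% of the 36 arrays and 1.5-fold or more from their median on at least 20% of them. This left 17963 probes, and the brightest probe of a gene stood for it. Groups were compared with limma 3.58.1 in R 4.3.3, which was tested on simulated data. Figures were drawn with matplotlib 3.10.9 in Python 3.11.15. The number of arrays limits the precision. The p-values set a difference between groups against the spread between mice within groups. In most comparisons most or all arrays of the groups also differ in scan session.

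Members and lists were chosen with earlier results of these data known. The text names all members, list genes called in 4 or more exposures against controls, and the 3 genes with the highest Pearson's r with a member over the arrays. Other genes were named after their values were seen. Gene names are those of the array, with older symbols matched for a few list genes (Plpp1 is Ppap2a on the array), and probe positions are those of the array on mm9. The alternatives were other scalings and filters, a normexp background, the deposited table, the mean of probes, a model over all arrays, array weights, blocks for replicate number, slide, and session, and leaving out each array. Centring on probes well above background on all arrays was added after seeing the data.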

Additional observations from a re-analysis of the deposited data

Results flagged for a closer look

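The level of Sphk1 differed between exposures in a direct test, being lower after neutron alone than after x-rays by a log2 fold-change of -1.23. Its second probe gave no call there (limma, adjusted p = 0.0605). The 6 arrays of neutron alone had a mean level of 1.55 ± 0.20 (SD) and the 6 x-ray arrays of 2.77 ± 0.62, against 0.21 ± 0.25 in controls. The groups share no scan session, so that exposure and session cannot be told apart. In a search for single arrays far from the rest of their group, 0 of 48 combinations of member and group passed the 95% critical value for a gap, where chance would pass about 1 in 20.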

How the results depend on the processing

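Every called difference of a member from controls kept its direction under each alternative in which it was tested, and among the single values for members and settings 1449 kept side and sign, 41 lost a call, 31 gained one, and 55 changed sign, all of the last for differences that were not called. Scalings moved the median of all genes by over 0.1, after x-rays from -0.114 to 0.436 with the 75th percentile, 0.381 with centring on probes well above background (chosen after seeing the data), and -0.777 with normexp. Sphk2 did not pass the filters with the 75th percentile, quantile normalization, or the deposited table, S1pr2 and S1pr4 did not with normexp, and Spns2 and S1pr2 did not with the stricter background filter.

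Members called against controls numbered 2 with normexp after x-rays, 1 after 5%, 0 after 15%, 2 after 25%, and 1 after neutron alone, and 0 with the session or slide as a block at 5 and 15%. All genes called with normexp made up 3.66%, 2.49%, 7.42%, 4.26%, and 3.36% in the same order. The session block called 0.59% and 0.902% of all genes at 5 and 15%, and the slide block 0.166% and 0.285%. With normexp all Sphk1 calls were lost, and S1pr1 at 15% was at -1.65 (adjusted p = 0.0138 in limma). With the slide as a block S1pr1 after x-rays was at -2.155 (adjusted p = 0.0197 in limma, not called). With the adjusted p alone 5 were called at 15%. Against x-rays the single model over all arrays gave 1, 2, 1, and 2 at 5, 15, 25%, and neutron alone, array weights gave 2, 1, and 3 at 15, 25%, and neutron alone, the adjusted p alone gave 2 at 15% and 4 for neutron alone, and the stricter background filter 1 at 15%. All genes called with the single model made up 4.69%, 10.2%, 7.66%, and 12.6%, and with array weights 12.4%, 11.3%, and 20.4%. The stricter filter called 6.29% of all genes at 15%. For neutron alone against x-rays the 75th percentile, the centring on probes well above background, and quantile normalization gave 2, while the mean of probes and normexp gave 0. In the same comparison the first 3 of these called 15%, 15.2%, and 14.6% of all genes, and normexp 0.00941%. Leaving out arrays gave 0 to 2 at 15% and 0 to 3 for neutron alone. Neutron alone against 25% gave 1 with the adjusted p alone, array weights, or the deposited table. Array weights and the deposited table called 17.6% and 11.1% of all genes there. For the adjusted p alone, the mean of probes, and arrays left out, the share of all genes was not taken. Those counts therefore have no background beside them and cannot be read as a result about the members. For neutron alone against x-rays, 6042 of all genes tested had an unadjusted p below 0.05 in limma.

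Same-numbered arrays of different groups deviated from their groups with a mean r of 0.037 over 90 pairs, beside -0.0063 over 450 other pairs. Single pairs went as low as -0.75 in both sets, so that these means do not settle whether the replicate numbers carry a pairing. With the replicate number as a block, members called against controls were 4, 3, 4, 4, and 3 after x-rays, 5%, 15%, 25%, and neutron alone, and 0 in the other comparisons, where Sphk1 in neutron alone against x-rays was lost (adjusted p = 0.0114 in limma). That block called 19.3%, 13.9%, 20.5%, 23.9%, and 33.8% of all genes against controls, and 0% to 9.42% in the other comparisons.

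The sign changes were as follows, on the log2 scale. With normexp they were -0.18 for S1pr1 at 5% against x-rays and -0.19 for neutron alone against 25%, -1.11, -0.32, and -0.84 for Sgpl1 at 5%, 25%, and neutron alone against controls and -0.52 for neutron alone against 25%, -1.39, -0.54, and -1.28 for Sphk2 in the same comparisons with controls, and -0.10 for Sphk2 at 5% against x-rays. With the session or slide as a block they were -0.44 and -0.19 for S1pr2 at 5 and 15% against x-rays, -0.36 for S1pr4 and -1.03 for Sphk1 at 15% against x-rays, -0.056 for Sgpl1 at 5% against controls, and -0.45 and -0.27 for Sphk2 at 5 and 15% against controls. For 15% against x-rays, S1pr4 and Sphk1 were at -0.125 and -0.088 with the 75th percentile, -0.022 and -0.028 with array weights, -0.14 and -0.10 with centring on probes well above background, -0.16 and -0.15 with the deposited table, and -0.031 and -0.05999 with quantile normalization, and they ranged from -0.16 to 0.15 and from -0.11 to 0.22 on leaving out arrays. S1pr4 at 25% against x-rays was at -0.013 with the 75th percentile, and Spns2 at 15% against x-rays at -0.11 with array weights. Sphk1 at 5% against x-rays ranged from -0.35 to 0.04 on leaving out arrays. Sphk2 at 5% against controls was at -0.012 with array weights and ranged from -0.019 to 0.21. For neutron alone Sphk2 was at -0.018 against controls with the slide as a random block, ranging from -0.061 to 0.086, and at 0.051 against 25% with the slide as a block, ranging from -0.24 to 0.0028. The causes were not tested.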

Other observations

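Between neutron alone and x-rays, 2 of the 20 metabolic genes tested were called higher and 1 lower. Of the 20 transport and signalling genes tested, 2 were called higher and 0 lower. In that comparison 12.9% of all genes were called in either direction, so that these counts lie near the background. The genes in this section are named after their values were seen. Ormdl3, a brake on sphingolipid synthesis, fell after x-rays by 1.27 and was higher after neutron alone than after x-rays by 1.31 ± 0.23 on the log2 scale (adjusted p = 0.00128 in limma). Cerk, the ceramide kinase, fell after x-rays by 1.55 and was higher after neutron alone than after x-rays by 1.04 ± 0.24 (adjusted p = 0.00596 in limma). With normexp these differences were 0.43 for Ormdl3 and 0.16 for Cerk and were not called, and that of Cerk was also lost with the mean of probes, the replicate number as a block, or a single model over all arrays.

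Plpp1, a phosphatase that dephosphorylates lipids such as S1P outside the cell, rose after x-rays, 5%, and 25% (adjusted p in limma from 0.000395 to 0.00265) and was lower after neutron alone than after x-rays (adjusted p = 0.00156 in limma). Its probe was well above background on all 6 arrays each of x-rays, 5%, and 25%, on 3 control arrays, and on 1 array of neutron alone, so that no fold is given, and it was not tested with normexp. Apom, which carries S1P in plasma, varied widely between mice, from -2.51 to 6.76 in controls, from 3.72 to 8.86 after 25%, and from -2.32 to 1.71 after neutron alone, where 1 of 6 arrays was well above background.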
